A study of Mus musculus with 30 samples.

Results

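The regions described here carried a SMARCA5 peak and no peak of 3 other chromatin remodelers in untreated mouse embryonic stem cells. There were 611 of them among 186686 merged regions. To find them, the peaks of 8 peak lists at 0 h (CHD4, CHD8, SMARCA4 and SMARCA5, 2 libraries each, chromosomes 1 to 19 and X) were merged wherever they overlapped by at least 1 bp. Of the merged regions, 158468 lay more than 1 kb from any CTCF peak at 0 h. Among those, 20639 had a peak in both SMARCA5 lists, and the 611 had none in the other 6 lists. The members were therefore selected on measured values, the presence of a peak in each of the 8 lists at 0 h, and every value from those lists is given as a description only.

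The study used ChIP-seq, in which DNA crosslinked to a protein is pulled down with that protein and sequenced, in the line E14 cultured without serum in the presence of LIF, PD0325901 and CHIR99021. All cells had the genotype CTCF AID, a degron through which the auxin IAA removes CTCF, and those used for the remodelers were CTCF AID and biotin-CHD4, biotin-CHD8, biotin-SMARCA4 or biotin-SMARCA5, 1 tagged remodeler per line. Libraries at 0 h came from cells without IAA and libraries at 12 h from cells treated with IAA for 12 h. Each remodeler had 2 libraries per time, while CTCF and SMC1A had 1 library each per time. The protocol in the labels, shared by all samples, speaks of antibodies without naming the reagent for the biotin tag. The labels do not say how many clones each line represents, nor whether the 2 libraries of a group came from separate cultures, so the spread between them may be technical.

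SMARCA5, also called SNF2H, is an ATPase of the ISWI family of remodelers. It slides nucleosomes into regularly spaced arrays and works in complexes with partners such as BAZ1A, BAZ1B, BAZ2A and RSF1. CTCF sites are among the places that are known to need it for binding and for the arrays of nucleosomes beside them, and the regions here are those away from such sites. SMARCA4 is the ATPase of the BAF complexes, CHD4 that of the NuRD complex, and CHD8 is a remodeler found mainly at promoters.

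Sequences at the summits of members that held SMARCA5 alone at both times are given as examples. They are 200 bases long and read from RefSeq GRCm38.p6 on the plus strand, and CpG dinucleotides are in capitals. Of the 8 such members that ranked highest at 0 h, the 6 outside UTRs are shown, each under the gene with the nearest start site.
Smarca5, chr8:80740384-80740583: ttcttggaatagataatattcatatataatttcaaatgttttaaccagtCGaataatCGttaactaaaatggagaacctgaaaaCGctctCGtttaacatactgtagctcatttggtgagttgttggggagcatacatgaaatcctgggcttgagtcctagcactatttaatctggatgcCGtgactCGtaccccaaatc
Shf, chr2:122374943-122375142: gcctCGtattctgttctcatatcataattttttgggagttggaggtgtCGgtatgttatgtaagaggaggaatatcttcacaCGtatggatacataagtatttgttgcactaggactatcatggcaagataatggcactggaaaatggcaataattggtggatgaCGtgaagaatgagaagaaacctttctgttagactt
Hnrnpa2b1, chr6:51464688-51464887: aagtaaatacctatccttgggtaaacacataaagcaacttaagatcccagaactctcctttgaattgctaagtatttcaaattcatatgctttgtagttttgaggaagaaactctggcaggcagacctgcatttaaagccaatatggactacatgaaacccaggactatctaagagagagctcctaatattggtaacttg
Gm47806, chr13:21197879-21198078: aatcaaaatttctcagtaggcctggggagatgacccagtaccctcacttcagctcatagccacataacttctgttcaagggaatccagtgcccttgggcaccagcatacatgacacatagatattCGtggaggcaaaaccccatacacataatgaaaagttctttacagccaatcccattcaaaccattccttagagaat
Lockd, chr6:134926295-134926494: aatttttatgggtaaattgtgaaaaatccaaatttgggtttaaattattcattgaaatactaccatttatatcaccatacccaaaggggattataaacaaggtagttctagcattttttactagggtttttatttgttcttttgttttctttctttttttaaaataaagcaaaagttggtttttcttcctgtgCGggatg
Il15, chr8:82390265-82390464: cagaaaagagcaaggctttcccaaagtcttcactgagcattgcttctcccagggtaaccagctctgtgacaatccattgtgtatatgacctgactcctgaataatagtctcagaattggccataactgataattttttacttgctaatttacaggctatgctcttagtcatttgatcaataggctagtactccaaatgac
The G+C content of these windows ran from 28% (Lockd) to 44% (Gm47806). The Smarca5 window held 6 CpGs and the Shf window 4, while the Hnrnpa2b1 and Il15 windows held none. None of the 18 short motifs searched for, which are given with the sequence results, was present in any of the 6 windows. Both statements depend on leaving out the members in UTRs. The UTR window at Smarca5 had a G+C content of 30.5% and held the letters of the NFY motif, CCAATCA. The UTR window at St3gal2 held none of the motifs, and its G+C content of 47% was above that of all windows shown.

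The peaks that made the members were, on the whole, of modest strength in their own lists. Fold enrichment, the authors' ratio of a peak to its background, had a median of 3.61 in SMARCA5 replicate 1 (range 1.67 to 7.43) and 3.49 in replicate 2 (range 1.65 to 7.91). Ranked by −log10 p within each list, the members had a median percentile of 38.1 and 37.4. The 20028 SMARCA5 regions that had a peak in at least 1 of the other 6 lists, called shared regions here, had a median percentile of 64.9 and 72.5. Members were 199 to 1344 bp wide with a median of 410 bp, and all regions away from CTCF had a median of 382 bp. Shared regions, which were merged from more lists, had a median of 1956 bp. Over the 611 members, the percentiles in the 2 SMARCA5 libraries had a Spearman correlation of 0.17 across regions of the same cell line. The summits of the strongest peaks of both libraries lay a median of 104 bp apart.

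**Figure D1:**
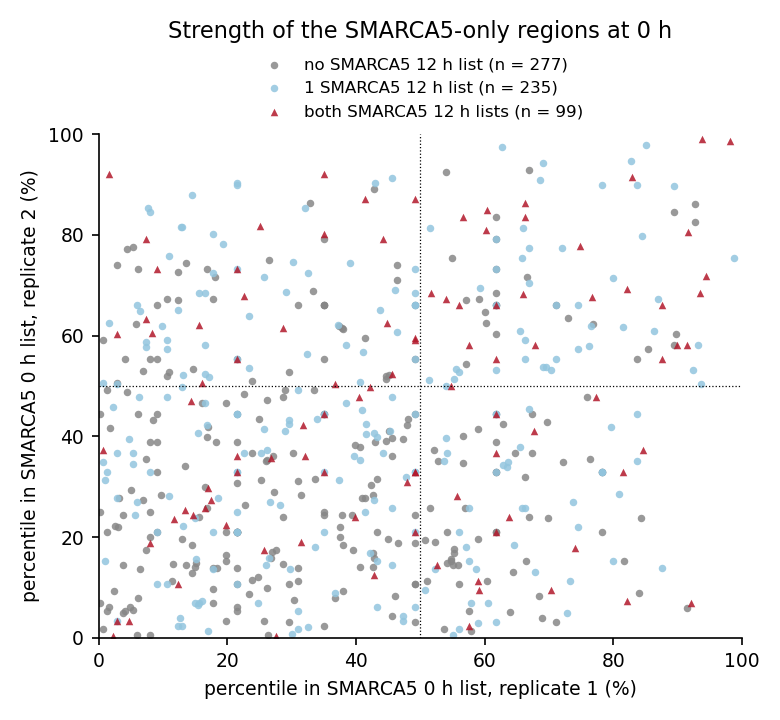
Each point is 1 of the 611 members, placed by its percentile by −log10 p within the SMARCA5 0 h list of replicate 1 (x axis, %) and replicate 2 (y axis, %), and marked by the number of SMARCA5 lists with a peak there at 12 h. Dotted lines mark the middle of each list. Most points lie below 50 in at least 1 list, and members of all 3 classes spread over the plane.

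The members were few beside the sets of regions with only 1 of the other remodelers in both of its lists, which numbered 11548 for CHD4, 3580 for SMARCA4 and 692 for CHD8. A further 161 regions met the rule on the lists but lay within 1 kb of CTCF. At 12 h, SMARCA5 peaks were present in 26.7% and 19.3% of those 161, and in 38.1% and 26.2% of the 42 members that lay just beyond, within 2 kb of a CTCF peak. Regions with a SMARCA5 peak in only 1 of the 2 lists, and no other remodeler, numbered 3275 for replicate 1 and 5805 for replicate 2. There were 470 regions with both SMARCA5 peaks and exactly 1 other list, and in 228 of these the single list was SMARCA4 replicate 1. Left out of the rule, that 1 library would raise the number of members to 1018.

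A member without a listed peak of another remodeler was often close to one. The nearest 0 h peak of CHD4, CHD8 or SMARCA4 lay a median of 390 bp from the edge of a member, and 454 of 611 members (74.3%) had one within 1 kb. SMARCA4 was the nearest of these by median distance, at 599 bp, followed by CHD4 at 896 bp and CHD8 at 1819 bp. These distances are given for members alone, so they do not show whether members differ from other sets. No member overlapped a peak of the cohesin subunit SMC1A at 0 h, which allows a share of up to 0.491%. Few regions away from CTCF did in any set: 1.41% of all of them, none of the CHD8-only, 0.0838% of the SMARCA4-only and 0.234% of the CHD4-only regions, and 8.42% of the much wider shared regions. The lists hold no reads, and a place without a peak may hold signal below the authors' threshold.

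The 12 h lists took no part in the choice of members, so they show what the same places looked like in other libraries, taken after CTCF had been degraded. SMARCA5 had a peak in 260 members in replicate 1 (42.6%) and in 173 in replicate 2 (28.3%), a mean of 35.4% ± 10.1 (SD, n = 2). SMARCA4 had a peak in 24.9% and 24.4%, CHD4 in 9.49% and 6.06%, and CHD8 in 5.73% and 3.11%. Over all 158468 regions away from CTCF, which include those chosen for other remodelers, SMARCA5 had a peak in 23.6% and 21.1%, SMARCA4 in 42.3% and 45.3%, CHD4 in 45.0% and 33.6%, and CHD8 in 22.2% and 17.8%. The members were thus above all regions for SMARCA5, by less in replicate 2, and below them for each of the other 6 libraries, which the rule favours by its choice at 0 h. Both SMARCA5 libraries were above all 6 libraries of the other remodelers, and the CHD8 libraries were the lowest. The mean of the other remodelers was 12.3% ± 9.79 (SD, n = 6), lower than that of SMARCA5 by 23.2 percentage points. The choice of members favours this direction, and the regions of CHD4, CHD8 or SMARCA4 alone likewise held their own remodeler most often at 12 h (54.3% and 40.6%, 67.3% and 51.7%, and 73.2% and 65.4%). The exact permutation test planned for the difference (one-sided, 8 libraries) gave p = 0.0357, the smallest that 28 relabellings allow, and for that reason nothing is read from it. With SMARCA5 0 h replicate 1 or 2 left out of the rule the difference was 7.39 or 8.62 points. With SMARCA5 12 h replicate 1 or 2 left out of the values it was 16 or 30.3 points. With SMARCA4 0 h replicate 1 or 2 left out of the rule it was 20.76 or 21.95 points. SMARCA5 then no longer held both highest places, so that order depends on the SMARCA4 lists in the rule.

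The peak names in the lists have either the time or the target first. Among the 12 h lists with the time first, SMARCA5 had 42.6% against 9.49% and 24.9% for the other 2 lists. Among those with the target first it had 28.3% against 3.11% to 24.4% for the other 4. This order too is one that the choice of members favours.

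**Figure D2:**
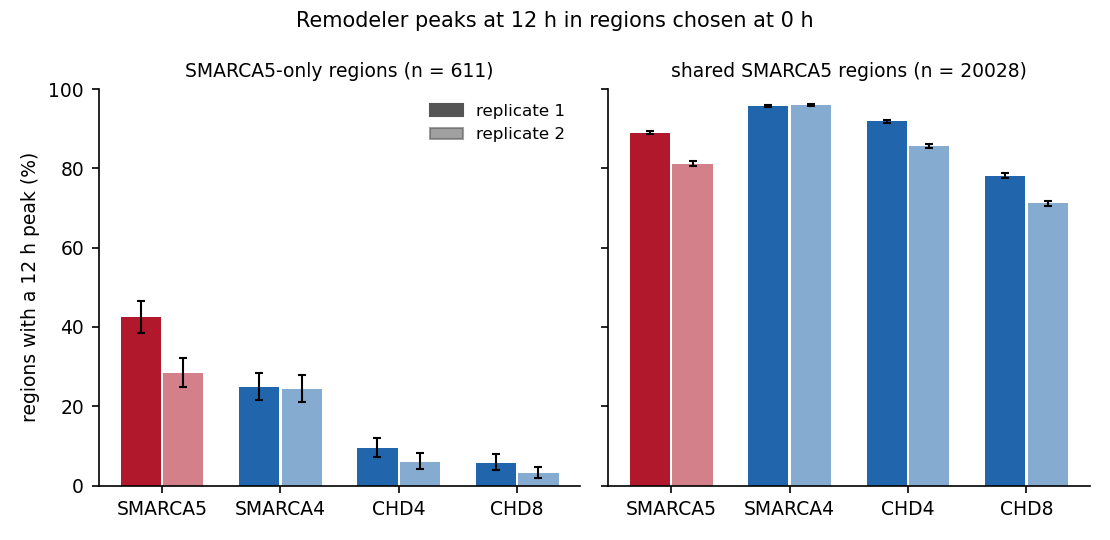
Share of regions with a peak in each of the 8 remodeler libraries at 12 h (y axis, %), for the 611 members on the left and the 20028 shared regions on the right. Bars start at 0, pale bars are replicate 2, and error bars are exact 95% intervals that cover counting error over regions only. In members SMARCA5 stands highest at 42.6% and 28.3%. In shared regions all 8 libraries lie between 71.2% and 95.9%.

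Shared regions held SMARCA5 at 12 h far more often, in 89.0% and 81.2%. Members were lower by 49.7 points on average (SD 4.54, n = 2 libraries), which is larger than the spread between the libraries. With 2 libraries no test was made. Where regions were built from the SMARCA5 peaks alone, which leaves out the width added by the other lists, the mean difference was −45.2 points. Where a 12 h peak had to lie within 100 bp of the midpoint it was −26.6 points, with 38.3% and 24.4% in members and 65.7% and 50.2% in shared regions. That rule lowers wide merged regions by construction, since their SMARCA5 peak need not lie at the midpoint. Members were weaker at 0 h, and within classes of like rank they also had the lower shares. The rank of a region is that of its strongest peak in each list, and shared regions were wider. Like rank therefore does not make the 2 sets alike, and the parts of strength and width were not tested. Among regions with a mean percentile of 20 to 40 at 0 h, SMARCA5 was present at 12 h in 36.6% and 22.6% of 235 members and in 74.6% and 62.5% of 2973 shared regions. Counted at the midpoint, the same class had 31.9% and 19.6% of members and 49.4% and 33.1% of shared regions, a much smaller gap. In the weakest class, percentiles 0 to 20, the values by any overlap were 31.3% and 22.2% of 99 members, against 64.5% and 54.2% of 792 shared regions, and at the midpoint 26.3% and 19.2% against 41.9% and 29.9%. In the strongest, 80 to 100, they were 72.2% and 44.4% of 18 members, against 98.8% and 96.4% of 5920 shared regions, and at the midpoint the members had the same values against 80.4% and 67.9%.

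Counted by any overlap, SMARCA5 was present at 12 h more often where more of the other lists had a peak in the same region at 0 h, which is a description without a test. It was found in 55.5% and 36.8% of the 470 regions with 1 other list, 69.9% and 56.8% of the 1214 with 3, and 96.5% and 90.7% of the 11440 with all 6. At the midpoint most of the rise from 1 to 3 lists was gone. Replicate 1 had 45.7%, 43.5% and 48.3% with 1, 2 and 3 other lists and replicate 2 had 30.6%, 36.9% and 33.4%. That rule does not count added width, but it also lowers wide merged regions by construction. The median width was 587.5 bp with 1 other list and 1164 bp with 3, so the midpoint values do not show whether the rise came from width. With all 6 lists the midpoint values were 74.0% and 58.2%. The median percentile at 0 h was higher along the same order, from 38.0 in members to 73.0 in regions with all 6 other lists, and the median width was larger, from 410 to 2329 bp. The parts played by width, strength and the other remodelers in this order were not tested.

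**Figure D3:**
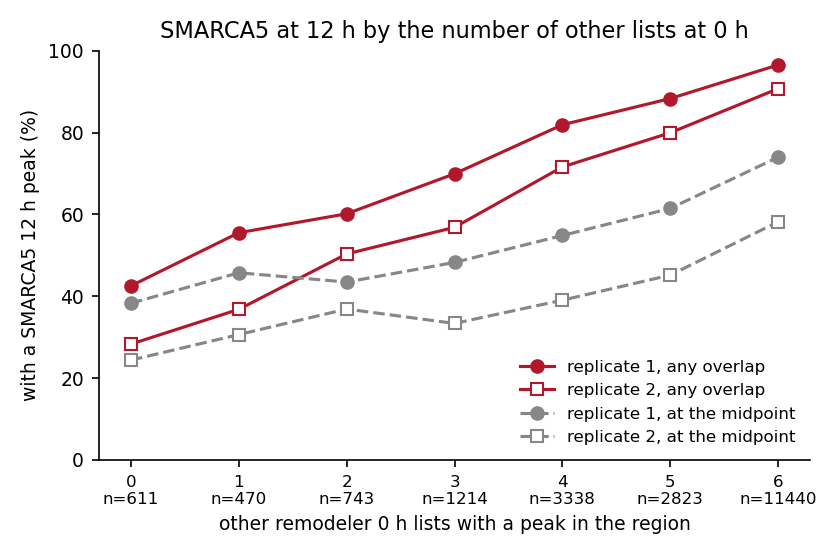
Share of regions with a SMARCA5 peak at 12 h (y axis, %) against the number of other remodeler 0 h lists with a peak there (x axis, 0 to 6, with the number of regions below). Circles are replicate 1 and squares replicate 2, solid lines count any overlap and dashed lines a peak within 100 bp of the midpoint. Members, at 0 other lists, are the lowest point of every line, and all 4 lines end highest at 6 lists.

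Few members kept SMARCA5 in both libraries. A peak was present in both 12 h lists in 99 members (16.2%), beside 74% of all 20639 regions that had both SMARCA5 peaks at 0 h, and in neither in 277 (45.3%), beside 6.71%. These shares depend on the rule: with SMARCA5 0 h replicate 1 or 2 left out of it, so that 1 list decides, they became 5.39% or 6.0% in both and 71.1% or 69.7% in neither. At a −log10 q of at least 5, with 50 members, 28% had a peak in both and 50.0% in neither, so both shares were higher. A further 161 had a peak in replicate 1 alone and 74 in replicate 2 alone. The sets of the other remodelers, judged by their own remodeler, had a peak in both 12 h lists in 32.9% (CHD4 only), 45.8% (CHD8 only) and 55.4% (SMARCA4 only) of regions, and in neither in 38.0%, 26.7% and 16.7%. Those sets were chosen from lists of other lengths, and the differences between sets were not tested.

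Only 37 members were SMARCA5 alone at both times, with a peak in both SMARCA5 12 h lists and in none of the other 6. Another 62 had both SMARCA5 lists and at least 1 other remodeler. Of the 277 with no SMARCA5 peak at 12 h, 166 had no remodeler peak at all and 111 had a peak in at least 1 list of another remodeler. Members without any remodeler peak at 12 h had a median 0 h percentile of 31.5, and those with SMARCA5 alone in both lists one of 46.8. The same classes over all regions are not given here, so these counts are a description only.

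Peaks of the other remodelers in both of their 12 h lists were at a share near the level of all regions for CHD4 and CHD8. CHD4 had a peak in both lists in 14 members (2.29%), beside 3.6% of all regions that lacked CHD4 at 0 h. CHD8 did so in 7 members (1.15%), beside 1.64% of regions that lacked CHD8. SMARCA4 did so in 73 members (11.9%), beside 7.55% of regions that lacked SMARCA4. At least 1 SMARCA4 list had a peak in 228 members (37.3%), beside 23.3% of regions that lacked SMARCA4. At least 1 CHD4 list did in 81 (13.3%), beside 20%, and at least 1 CHD8 list in 47 (7.69%), beside 7.45%.

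The same rule applied to the 12 h lists, with CTCF peaks still taken from 0 h, gave 528 regions. Of the 611 members, 36 (5.89%) overlapped one of them, which is 6.82% of the 528. The corresponding overlap was 16.5% of the 0 h set and 33.4% of the 12 h set for CHD4, 18.9% and 23.9% for CHD8, and 19% and 10.8% for SMARCA4. Seen from the other side, the 528 regions had a SMARCA5 peak at 0 h in 27.1% (replicate 1) and 35.2% (replicate 2), a SMARCA4 peak in 22.4% and 8.33%, and a CHD4 peak in 11.6% and 9.66%. The 2 sets were thus of like size and mostly different places.

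The members were spread unevenly over the chromosomes. Chromosome 8 held 90 (14.7%), chromosome 10 held 65, chromosome 6 held 47 and chromosome 17 held 44. These 4, picked after the counts were seen as those with over 1.2 times the share of shared regions, held 246 members, or 40.3% (exact 95% interval 36.3% to 44.3%, counting error over regions only). They make up 19.2% of the sequence of the 20 chromosomes, and held 23.2% of shared regions, 19.3% of CHD4-only, 22.0% of CHD8-only and 16.4% of SMARCA4-only regions. The X chromosome held 3 members (0.491%), 0.909% of shared regions and 1.62% of all regions away from CTCF. The 528 regions found by the same rule at 12 h, from lists not used to pick the chromosomes, had 37.1% on these 4 and 13.4% on chromosome 8.

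**Figure D4:**
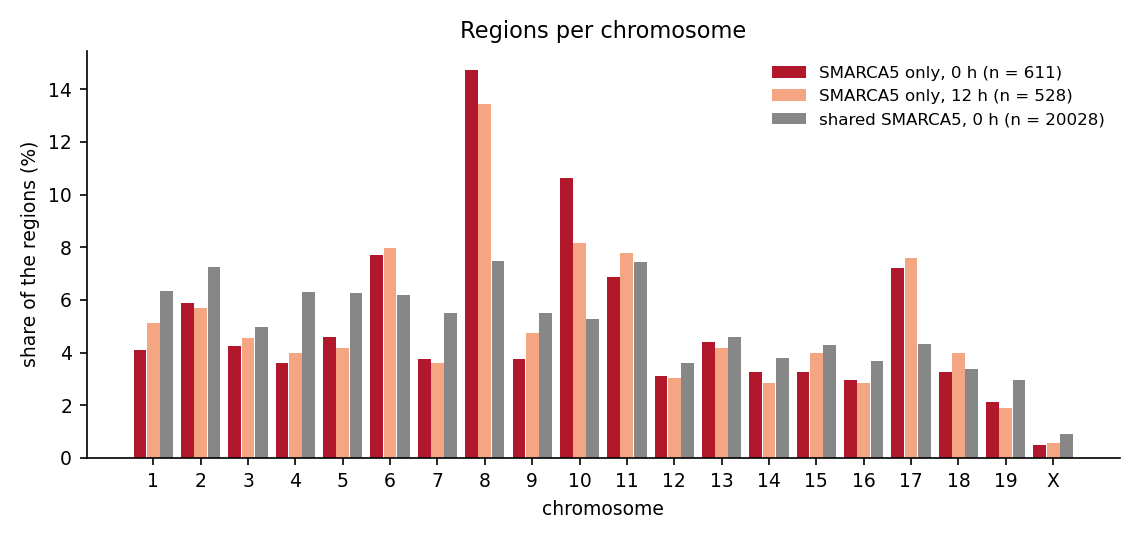
Share of regions on each chromosome (y axis, %, from 0; x axis, chromosome) for the members at 0 h, the regions found by the same rule at 12 h and the shared SMARCA5 regions. Chromosome 8 holds 14.7% of the members, 13.4% of the 12 h set and 7.46% of shared regions, and chromosomes 6, 10 and 17 also stand higher in both SMARCA5-only sets.

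Within 3 of these chromosomes the members were grouped. On chromosome 10, 51 of 65 members lay in the first 50 Mb, a stretch that held 35.4% of the shared regions of the chromosome, 61.2% of the CHD8-only regions and 5.48% of the CHD4-only regions. The 12 h set had 30 of 43 there. On chromosome 17, 20 of 44 members lay between 80 and 90 Mb, with 14 of 40 in the 12 h set and 13.8% of shared regions. On chromosome 8, 28 of 90 lay between 30 and 50 Mb, with 16 of 71 in the 12 h set and 16.5% of shared regions. These windows were chosen after their counts were seen.

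Whole SMARCA5 lists also leaned to some of these chromosomes. In the 12 h lists, chromosome 8 held 7.37% and 7.05% of SMARCA5 peaks against 5.16% to 5.49% in the 6 other libraries, a difference of 1.88 points (exact permutation test over 8 libraries, one-sided, p = 0.0357, adjusted p = 0.0714 over the 4 chromosomes). On chromosome 6 the values were 5.94% and 6.29% against 5.12% to 5.39% (exact permutation p = 0.0357, adjusted p = 0.0714). Chromosomes 10 and 17 gave differences of 0.13 and 0.08 points (exact permutation p = 0.321 and 0.357, both 0.357 adjusted), with both SMARCA5 libraries inside the range of the others. No adjusted value passed 0.05, and 8 libraries cannot give one below 0.0357. The 4 chromosomes were picked from 0 h peaks of the same biotin-SMARCA5 line. The 2 libraries of a remodeler may also not be separate cultures, so nothing is read from these p-values. Peak lists hold no measure of DNA copy number, so whether the number of chromosome copies in these lines moves with these shares was not tested. Members on these 4 chromosomes held SMARCA5 in both 12 h lists in 17.9% and in neither in 39.4%, and the 365 members elsewhere in 15.1% and 49.3%.

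Introns held 321 members (52.5%), against 43.7% of all regions away from CTCF and 41.3% of points set every 50000 bp along the genome. Intergenic sequence held 187 (30.6%), against 36.9% and 51.2%. SMARCA4-only regions had 58.6% in introns and 31.1% in intergenic sequence, and the 12 h set had 58.9% and 22.7%. Another 65 (10.6%, exact 95% interval 8.31% to 13.4%) lay within 1 kb of a start site in the GENCODE M21 basic annotation. UTRs held 23 and coding exons 10. Within 1 kb of a start site were also 38.6% of shared regions, 6.93% of CHD4-only, 6.20% of SMARCA4-only and 16.6% of CHD8-only regions, 12.5% of the 12 h set, 14.1% of all regions away from CTCF and 4.41% of the genome points. The nearest start site lay a median of 7492 bp from a member, and 42.7% of members had none within 10 kb. Regions are not replicates, so these shares carry counting intervals and no test.

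The base composition of members was lower in G+C than that of the other bound sets. The 300 bases around the summit had a median G+C of 44.3%, against 41.7% at the genome points, 46.7% in the 12 h set, 46.7% in SMARCA4-only, 48.7% in shared and in CHD4-only, and 53.0% in CHD8-only regions. The ratio of observed to expected CpGs had a median of 0.22 in members and 0.15 in genome points. A ratio above 0.6, a usual mark of CpG islands, was found in 21 members (3.44%), in 19.4% of shared and 14.6% of CHD8-only regions, and in 1.81% of genome points, 1.98% of SMARCA4-only, 2.65% of the 12 h set and 2.84% of CHD4-only regions. More than 50% of the window was repeat-masked in 87 members (14.2%), in 7.54% of SMARCA4-only, 11.2% of shared, 17.5% of CHD8-only and 49.5% of CHD4-only regions, and in 27% of genome points. In 404 (66.1%) every 32-base word occurred once on the 20 chromosomes, and in 15 (2.45%) over 50% of the words occurred again, against 1.82% of SMARCA4-only regions, 3.22% of the 12 h set and 17.2% of CHD8-only regions.

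**Figure D5:**
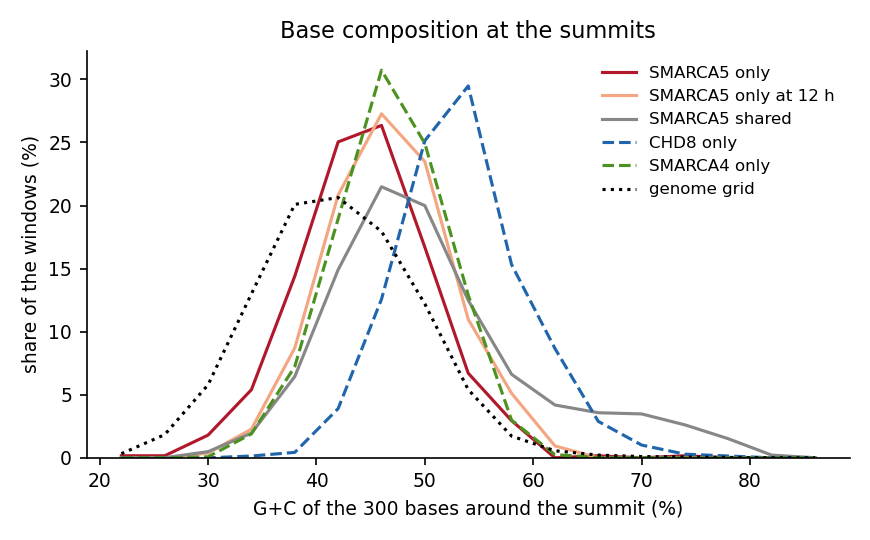
Share of 300-base windows around the summit (y axis, %) by their G+C content (x axis, %, in steps of 4), for the members, the 12 h set, shared regions, regions of CHD8 or SMARCA4 alone, and evenly spaced genome points. The highest point of the members, the 12 h set, shared regions and SMARCA4-only regions is the same step, 44% to 48%, while genome points peak lower and CHD8-only regions higher, at 52% to 56%. The medians are 44.3% in members, 41.7% in genome points and 53.0% in CHD8-only regions.

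Short motifs were sparse. The 18 motifs, searched on both strands in the 300-base windows, were CCACNAGGG (part of the CTCF motif), ATGCAAAT (POU octamer), ATTGTNATG (SOX-POU composite), GGGCGGG (SP/KLF), GGGTGTGGC (KLF4), TCAAGGTCA (ESRRB), TGANTCA (AP-1), TGACGTCA (CRE), CACGTG (MYC E-box), GCGCATGCG (NRF1), AAGATGGCG (YY1), CCCAGNATG (ZFP143), GGACAGCGC (REST), CCGGAAGTG (ETS), ACATTCCA (TEAD), CCAATCA (NFY), AGATAAG (of GATA factors) and TCTCGCGAG (BANP). The most frequent in members was that of AP-1, in 59 windows (9.66%), against 8.97% of genome points. The SP/KLF letters were in 1.47% of members, 1.40% of genome points, 8.26% of shared and 11.1% of CHD8-only regions. The YY1 letters were in none of the members, which allows a share of up to 0.491%. They were also in none of the SMARCA4-only regions and none of the 12 h set. Genome points had them in 0.301%, shared regions in 0.37%, CHD4-only regions in 0.875% and CHD8-only regions in 10.1%. The letters of the CTCF motif were in 3 members (0.491%) and in 0.811% of genome points. A match is a description of these letters and not of a binding site.

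The 611 members were nearest to 525 different protein-coding genes, and 16 genes were nearest to 3 or more. The gene of SMARCA5 itself was one of them. Smarca5 lies on the minus strand at chr8:80698507-80739497, and 2 members fell on it and 1 just upstream. The member with the highest rank among those that stayed SMARCA5 alone was at chr8:80740413-80741014, 916 bp upstream of its start site, with a fold of 4.76 and 5.07 in the 0 h lists and 4.73 and 3.33 in the 12 h lists. Its summit sequence is the first of those printed above. The second, at chr8:80700386-80700904 in the 3′ UTR, had folds of 3.91 and 3.56 at 0 h and 4.13 and 4.65 at 12 h. The third, in an intron at chr8:80701185-80701580, had 2.58 and 2.23 at 0 h and a peak in only 1 SMARCA5 list at 12 h, with a fold of 3.75. None of the 3 had a peak in any of the other 12 remodeler lists at either time. Over the gene and 1 kb to either side, the 4 SMARCA5 lists held 4 to 8 peaks each and the other 12 lists 0 to 2. The genes of the other remodelers showed no such split: over Chd4 the CHD4 lists held 3 to 12 peaks and the rest 3 to 5, over Chd8 the CHD8 lists held 4 to 5 and the rest 4 to 7, and over Smarca4 the SMARCA4 lists held 2 to 4 and the rest 1 to 9. Smarca5 was singled out after these values were seen, and the cause was not tested.

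Gene groups are given as counts, each resting on few members and without a test, beside 1.51% of all 21728 protein-coding genes with a member within 10 kb of a start site. Of 13 genes of ISWI subunits and partners, 3 had one, and 1 of these was Smarca5 itself. Baz1a, which encodes the ACF subunit, had one in an intron at chr12:54987776-54988272 with folds of 3.78 and 5.36 at 0 h and 3.65 and 3.77 at 12 h. At 12 h this member also had a peak in 1 SMARCA4 list. Baz2b, which encodes another partner of ISWI ATPases, had one 9647 bp from a start site, with 4.58 and 3.04 at 0 h and 4.06 and 2.88 at 12 h. All 3 genes had a member with SMARCA5 in both 12 h lists. Apart from Smarca5 the count rests on Baz1a and Baz2b, from a list made with earlier results known, and 11 of the 13 genes also had a shared region within 10 kb. Nothing about partners as a group is read from it.

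Of 18 pluripotency genes, Klf2 and Zfp42 had one. The member at Zfp42, which encodes REX1 of the naive state, was intronic at chr8:43301894-43302571. It had folds of 4.29 and 3.45 at 0 h and 3.50 and 3.44 at 12 h, and at 12 h also a peak in 1 CHD8 list. The member near Klf2, a Krüppel-like factor of the naive network, lay 9353 bp away with 4.29 and 2.94 at 0 h. At 12 h it had a SMARCA5 peak in replicate 2 and not in replicate 1, and peaks in 1 CHD4 list and both SMARCA4 lists. None of 18 lineage regulators (such as Gata4, Sox17, T and Pax6) and none of 20 genes of DNA replication and the cell cycle (such as Mcm2, Pcna and Cdk1) had a member within 10 kb, and lists of this size can say little at a background of 1.51%. Of 16 genes of DNA methylation and heterochromatin, Cbx3, which encodes HP1 gamma, had one, the member in the intron of the adjoining Hnrnpa2b1. Of 394 Zfp genes 12 (3.05%) had a member, from 11 members, and 1 of those members held SMARCA5 in both 12 h lists. Of 67 histone genes 11 had a member, but these genes stand close together and shared 3 members. Of 39 Hox genes 3 had one (7.69%), from 2 members, and of 76 ribosomal protein genes 2 (2.63%). None of 1134 olfactory receptor genes had one.

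Members that held SMARCA5 alone at both times lay at genes of varied function. The member near Shf, which encodes an SH2-domain adaptor, at chr2:122374700-122375307 had folds of 5.48 and 4.30 at 0 h and 5.13 and 5.39 at 12 h, and at 12 h it stood at percentiles 93.2 and 94.1 of the lists. The member in an intron of Hnrnpa2b1, which encodes an RNA-binding protein, at chr6:51464470-51465460 had 4.64 and 4.12 at 0 h and 4.02 and 4.09 at 12 h. Near Trim27, a ubiquitin ligase gene, the member at chr13:21197669-21198300 had 5.42 and 3.73 at 0 h and 3.01 and 3.87 at 12 h. At 12 h these 3 ranged from percentile 19.3 to 94.1, so a peak that was kept was not always a strong one. The member at chr6:134926240-134926559 lay 2533 bp from Lockd, a long noncoding RNA gene downstream of the cell cycle inhibitor gene Cdkn1b, with 3.97 and 4.75 at 0 h and 3.33 and 5.45 at 12 h. Il15, a cytokine gene, had an intronic member at chr8:82390054-82390435 with 4.29 and 4.34 at 0 h and 3.53 and 4.76 at 12 h. The last of the 8, at chr8:110972087-110972419 in a UTR of the sialyltransferase gene St3gal2, had 4.10 and 4.03 at 0 h and 3.23 and 2.46 at 12 h. Counting the 2 at Smarca5, 4 of the 8 lay on chromosome 8.

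Strong members at 0 h could also lack SMARCA5 at 12 h. The highest by rank of these was at chr6:148986992-148987757, 972 bp from the start of the noncoding gene Gm26540, with 0 h folds of 5.56 and 4.94. At 12 h it had a peak in 1 SMARCA4 list. The member 32555 bp from Emid1, at chr11:5184812-5185131 with folds of 5.55 and 4.72, had a peak in 1 CHD4 list at 12 h. The member near C1qtnf12, a gene of a secreted protein, at chr4:155959456-155959876 had 5.25 and 5.02 at 0 h and no remodeler peak at 12 h. The member near Ctc1, which encodes a subunit of the CST complex of telomeres, at chr11:69013630-69014086 had 4.11 and 5.52 and a peak in both SMARCA4 lists at 12 h. The fifth, at chr15:34804374-34804678, had 5.51 and 4.06 and a peak in 1 CHD4 list. They stood at mean percentiles of 75 to 89.5 at 0 h, which overlaps the 63.9 to 87.2 of the 8 that stayed.

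At 12 h, 2 members had no SMARCA5 peak and a peak in at least 1 list of each other remodeler. These 2 are a description, since no share over all regions is given beside them. One lay 551 bp from the start of Zfp944, a zinc-finger gene of a multigene family, at chr17:22360423-22360849, with 0 h folds of 4.69 and 3.53. At 12 h it had a peak in 1 CHD4 list, both CHD8 lists and both SMARCA4 lists. Its summit sequence is printed with the NFY and AP-1 letters in capitals.
Zfp944, chr17:22360658-22360857: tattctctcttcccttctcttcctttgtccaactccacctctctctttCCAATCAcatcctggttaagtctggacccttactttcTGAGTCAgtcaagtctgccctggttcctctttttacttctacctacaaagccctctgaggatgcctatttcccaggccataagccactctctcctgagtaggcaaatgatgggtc
The other lay 148 bp from the start of Marveld2, which encodes a protein of tricellular junctions, at chr13:100617119-100617471. It had folds of 2.91 and 3.43 at 0 h and 1 list each of CHD4, CHD8 and SMARCA4 at 12 h, and a peak of another remodeler adjoined it already at 0 h.

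Of the members, 46 lay within 1 kb of a start site of a protein-coding gene. After Smarca5, the highest by rank were at Rab18, a small GTPase gene, and at Pdia4, which encodes a disulfide isomerase of the endoplasmic reticulum. Rab18 had folds of 5.43 and 4.34 at 0 h and 3.80 and 4.26 at 12 h, and Pdia4 had 4.21 and 4.32 at 0 h and 3.26 and 3.90 at 12 h. At 12 h both also had peaks in the 2 SMARCA4 lists. The member 970 bp from Saraf, which encodes a regulator of store-operated calcium entry, had 5.25 and 3.73 at 0 h and no remodeler peak at 12 h. Tex30 had 4.36 and 3.61 and, at 12 h, a peak in 1 SMARCA4 list alone. The member over a start site of Zfand6 was 1290 bp wide, had 4.00 and 5.11 at 0 h and 5.22 and 4.04 at 12 h, and had a peak in both CHD8 lists at 12 h. Of these 6, 4 kept both SMARCA5 peaks, and Smarca5 alone did so without another remodeler.

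Some members lay close together, and 150 (24.5%) had another member within 50 kb. That share was not computed for other sets, so it is a description only. The largest group, 8 members, lay between 3162651 and 3183586 on chromosome 11 with Sfi1, a centrosome gene, as the nearest protein-coding gene. Its folds were the lowest of the groups, 1.67 to 2.41 in replicate 1 and 1.65 to 2.47 in replicate 2 at 0 h. All 8 had a SMARCA5 peak in 12 h replicate 1 and none in replicate 2. Without them the members had SMARCA5 in both 12 h lists in 16.4% and in neither in 45.9%. Cited2, which encodes a transcriptional coregulator, had 5 members on chromosome 10, of which 3 had a SMARCA5 peak in at least 1 list at 12 h and none in both. Tra2b, a splicing regulator gene, had 4 members, 3 of them in introns within 3953 bp of a start site, with folds of 3.65 to 4.37 and 2.67 to 4.18 at 0 h. Of the 4, 1 held SMARCA5 alone in both 12 h lists.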

How the data were processed

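ChIP-seq peak lists of 20 of 30 samples of mouse E14 cells were analysed, and the 10 inputs were not analysed here. Samples were grouped by target and treatment from the labels. Per the submitters' processing notes the tools were Trim Galore, Bowtie2, MACS2 and deepTools and the builds mm10 and hg38, with no versions or roles given. Each list belongs to 1 sample, in the narrowPeak layout. Its deposited columns were read as the authors' fold enrichment (a ratio), −log10 p and −log10 q of each peak, a display score (not used) and the summit offset (another value, in bp). They rank or describe peaks within a list only. The deposited lists hold no read counts, so depth is unknown. List lengths were 40880 to 187294 for remodelers. All peaks on the 20 chromosomes ended within GRCm38.

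Regions were merged and annotated with Python 3.11.15, numpy 2.4.6 and pandas 2.3.3. Sequences came from RefSeq GRCm38.p6. A region was occupied by at least 1 bp of overlap. Libraries were the units of the exact permutation tests (28 relabellings). Intervals are Clopper-Pearson 95% intervals and cover counting error only. The limit for a count of 0 is 3 counts of the total. The functions were tested on simulated peak lists. Members, gene lists, motifs and alternatives were chosen with earlier results of these data known.

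Named members follow a rule on the mean percentile by −log10 p in both SMARCA5 0 h lists. They are the 8 highest with both SMARCA5 12 h peaks and no other, the 5 highest without a SMARCA5 12 h peak, up to 5 without one that had all 3 other remodelers, the 6 highest within 1 kb of a protein-coding start site, and listed genes with a member within 10 kb. Members of Sfi1, Cited2 and Tra2b, the other members of Smarca5 and Chd4 and Chd8 were named after their values were seen. Alternatives changed the threshold (a −log10 q of 5 or more), the list lengths (all cut to the shortest), the way regions were built, the distance to CTCF, the overlap at 12 h, the start sites counted and the exchange of labels within replicate numbers, and dropped 1 library at a time.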

Additional observations from a re-analysis of the deposited data

How the results depend on the processing

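The lists give no depth, and a missing peak is not missing binding. The difference between SMARCA5 and the other remodelers at 12 h kept its direction in all 25 alternatives. The choice of members favours that direction, and the exact permutation p was above 0.05 in 7 of them. SMARCA5-centred regions, 1 of the 25, give the same members by construction and could not change the difference. The difference ran from 7.39 to 30.3 points with 1 library left out. With a replicate block it remained at 23.2 points, with p = 0.0625 in the exact permutation test, the smallest p that paired design allows. Replicate numbers pair no samples by the labels, and replicate differences of 2 remodelers correlated across regions by 0.019 at most over 6 pairs of remodelers.

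Members minus shared regions in SMARCA5 at 12 h was −41.9 points at a −log10 q of at least 5, −43.4 with equal list lengths, −45.2 for SMARCA5-centred regions, −26.6 at the midpoint and −57.9 to −45.6 with 1 library left out. The number of members was 50 at the stricter q, and 627 to 6639 with 1 of the 0 h libraries left out, since fewer lists then decide. The number at 12 h was 58 at the stricter q and 544 to 6335. The share near a start site was 14.0% at the stricter q, 7.53% for coding genes alone and 9.90% to 13%. The share on chromosomes 8, 10, 6 and 17 was 50.0% at the stricter q and 30.1% to 40.6%, so it was lowest, 30.1% and 30.9%, where 1 SMARCA5 list decided.

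Chosen after seeing the data, leaving out these 4 chromosomes left 365 members and 332 at 12 h, with a difference of 20.2 points. Leaving out the 15 members of repeated sequence gave 23.0 points and leaving out those at Sfi1 22.8. The exact permutation p was 0.0357 in each case. That is the smallest that 28 relabellings allow, in a direction that the choice of members favours, so nothing is read from it. SMARCA5-centred regions gave the same 611 members by construction, since a region without another list is built from SMARCA5 peaks alone. A distance of 5 kb from CTCF gave 497.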
